A study of Mus musculus with 6 samples.

Results

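Semaphorins, ephrins, Slits and netrins are guidance cues, and plexins, neuropilins, Eph receptors, Robos and Unc5 proteins are the receptors that read them. The genes were taken by symbol, as every protein-coding mouse gene named as a semaphorin of classes 3 to 7, plexin, neuropilin, ephrin, Eph receptor, Slit, Robo, netrin or Unc5 receptor, which gave 68 of the 54115 genes in the annotation. Of these, 60 were among the 17152 genes with enough reads to be tested, and 43 reached a mean of 1 TPM, a level corrected for transcript length and library size.

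RNA was sequenced from satellite cells, which are the resident stem cells of muscle, sorted without culture from the uninjured hindlimb muscles of C57BL/6J mice. The 3 Pax7WT libraries carried wild-type Pax7, and the 3 Pax7KR libraries carried a CRISPR-Cas9 allele that replaces an acetylated lysine of PAX7 with arginine. The study bred its Pax7KR mice as homozygous second-generation animals, used wild-type littermates as controls and describes experimental mice of 6 to 8 weeks. Sorted cells were positive for α7-integrin and CD34 and negative for CD31, CD11b, SCA-1 and CD45, and no group received a treatment. Because the allele is in the germline, every tissue of the Pax7KR mice carried it.

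Each library held between 17822367 and 27908054 reads assigned to transcripts. The 15 satellite cell markers summed to between 11240 and 12010 CPM, or reads scaled to a common library size, in every library, and Pax7 itself ran from 1410 to 1666 CPM with a log2 fold change of -0.05 (standard error, SE, 0.08), a level that checks the cell type and not the allele. The immune markers, which include the gene of the gated protein CD45, summed to at most 17.9 CPM, with Cd3e at 0 in every library and Ptprc at no more than 1.27 CPM. Of 9 immune markers tested, 3 had an unadjusted p under 0.05 in edgeR, or 33.3%, against 4.68% of all genes. Of these, C1qa and Cd52 were higher, both under 1 CPM in every library, and Cd79a was lower. Ly6a, the gene of the gated SCA-1, ran from 5.5 to 9.4 CPM. The 10 fibro-adipogenic progenitor markers summed to between 2458 and 2530 CPM in Pax7WT and between 2540 and 2624 CPM in Pax7KR. Their fold changes were above 0 in 4 and below 0 in 6, and Col3a1 alone ran from 1258 to 1411 CPM. The 16 endothelial markers summed to between 397 and 497 CPM in Pax7WT and between 435 and 611 CPM in Pax7KR, although the gate excluded CD31, whose gene Pecam1 ran from 20.7 to 50.4 CPM. A large part of each endothelial sum was Tek alone, which ran from 183.6 to 231 CPM with a log2 fold change of 0.08 (SE 0.08). The 10 Schwann cell and glial markers summed to between 371 and 411 CPM in Pax7WT and between 341 and 350 CPM in Pax7KR. The 5 erythroid markers summed to between 190 and 376 CPM in Pax7WT and between 329 and 556 CPM in Pax7KR, with fold changes above 0 in 5 of 5 and a median log2 fold change of 0.66. The 10 smooth muscle and pericyte markers had fold changes below 0 in 10 of 10, with a median of -0.09. Among them, Notch3 and Des are also in the list of satellite cell markers. Notch3 alone ran from 2052 to 2475 CPM, where the 10 markers summed to between 2827 and 3440 CPM. Immediate early genes, which dissociation induces, summed to 28620 CPM in Pax7WT replicate 2 and to between 36710 and 47670 CPM in the other libraries. Pax7KR replicate 2 stood apart in 4 Y-linked genes, which summed to 130.7 CPM against 299.4 to 355.4 CPM elsewhere, while Xist was at most 2.29 CPM in every library. Whether this library holds RNA of more than 1 animal is not given in the sources used here. These are bulk libraries, so fewer cells of a type and less RNA per cell cannot be told apart.

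Guidance cues were named for their work on growing axons, and the same molecules act on migrating, adhering and vessel-forming cells in many tissues. Semaphorins bind plexins, with neuropilins as co-receptors for most secreted class 3 semaphorins, and plexins act on small GTPases through an intracellular GTPase-activating domain. Ephrins are held at the cell surface, class A by a lipid anchor and class B by a transmembrane segment, so that binding to Eph receptor tyrosine kinases takes place between touching cells and can signal into both. Slits bind Robos, and netrins bind Dcc, neogenin and Unc5 receptors. In muscle, ephrins are known to turn away moving satellite cells, and Sema3a from satellite cells has been tied to the regrowth of motor nerve endings.

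The study asked whether the loss of PAX7 acetylation changes which sites PAX7 binds, in particular those with a homeobox motif. As background, TAAT is the core that many homeodomains bind. The bases just upstream of a gene's start are shown for 3 of the 4 members with an unadjusted p under 0.05 below, Epha2, Ephb1 and Slit2. The window of Sema4g, the other such member, lies almost wholly in annotated exons and is not shown. Also shown is a 30-base stretch for Efna1, the highest ephrin, from a window of that gene that holds the paired form of the core. All are RefSeq sequences of build GRCm38.p6, written 5' to 3' on the strand of the gene, with TAAT or its reverse complement ATTA in capitals. The windows are chr4:141300971-141301220 (+ strand) for Epha2, chr9:102354695-102354943 (- strand) for Ephb1, chr5:47982905-47983137 (+ strand) for Slit2 and chr3:89281109-89281138 (- strand) for Efna1.
Epha2: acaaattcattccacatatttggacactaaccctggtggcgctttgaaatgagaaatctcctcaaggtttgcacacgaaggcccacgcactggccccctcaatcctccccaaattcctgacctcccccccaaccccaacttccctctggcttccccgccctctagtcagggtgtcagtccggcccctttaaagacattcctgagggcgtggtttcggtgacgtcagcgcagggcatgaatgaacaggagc
Ephb1: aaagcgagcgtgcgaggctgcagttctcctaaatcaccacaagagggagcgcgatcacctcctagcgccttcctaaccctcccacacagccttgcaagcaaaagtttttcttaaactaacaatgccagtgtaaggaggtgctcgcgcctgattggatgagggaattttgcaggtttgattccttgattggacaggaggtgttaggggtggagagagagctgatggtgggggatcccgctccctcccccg
Slit2: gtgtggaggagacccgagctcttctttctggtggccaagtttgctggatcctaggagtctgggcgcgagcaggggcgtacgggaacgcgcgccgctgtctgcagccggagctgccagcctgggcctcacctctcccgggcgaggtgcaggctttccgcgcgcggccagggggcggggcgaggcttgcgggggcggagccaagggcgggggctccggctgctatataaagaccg
Efna1: cctggcccgatgTAATTAcagggtctgccg
The first 3 windows end before the first annotated exon and contain no capital letters, so the 4-base core is not in them. The 30 bases of Efna1 lie within annotated exons and hold TAATTA. Another window of Efna1, chr3:89279646-89279895 (- strand), lies upstream of every annotated exon like the first 3. Its 250 bases hold neither TAAT nor ATTA. Over the 250 bases before each start, 59 of the 68 members matched 75 promoters in the RefSeq table. TAATTA, searched on both strands, was in 3 of the 75, or 4.0%, those of Efna1, Epha5 and Robo3, against 4.84% of all 32851 promoters. TAATNATTA, with 2 opposed cores around any base, was in 0 of the 75, against 0.588% of all promoters, and the form with 2 bases between the cores was also in 0, against 0.384%. The single core in either direction, a count added after the longer motifs had been read, was in 28 of the 75, or 37.3%, against 54.9% of all promoters. These counts describe letters in short windows and say nothing of binding.

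Read by level, the guidance genes of satellite cells were dominated by a few members. Their summed TPM was 1323, 1258 and 1241 in Pax7WT replicates 1 to 3 and 1259, 1280 and 1246 in Pax7KR replicates 1 to 3, or 1274 ± 42.8 and 1262 ± 17.2 (SD, n = 3 each). Plexins and neuropilins together averaged 409 TPM, semaphorins 367 TPM and netrins 342 TPM. Eph receptors averaged 76.9 TPM, Robos 29.3 TPM, ephrins 25.8 TPM, Unc5 receptors 14.9 TPM and Slits 3.42 TPM. The highest member was Plxnd1, a plexin known as the receptor for Sema3e in vessels, at 211.9 ± 17.1 TPM (SD over 6 libraries). Ntn5, a small netrin, followed at 164 ± 7.41 TPM, Sema6a, a transmembrane semaphorin, at 128.7 ± 9.34 TPM, and Ntn4, a netrin of basement membranes, at 96.8 ± 9.19 TPM. The lowest library of each of Plxnd1, Ntn5 and Sema6a lay above the highest library of the next. Below them, Ntn4, Sema3b, Plxnb2 and Ntn1 had overlapping ranges. This order rests on TPM summed over all transcripts of a gene. In Plxnd1, transcripts annotated as retaining an intron took between 37.3% and 47.8% of the TPM. The protein-coding Plxnd1-201 alone was estimated at 98.3 to 135.7 TPM, while Ntn5 ran from 152 to 174.8 TPM.

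**Figure D1:**
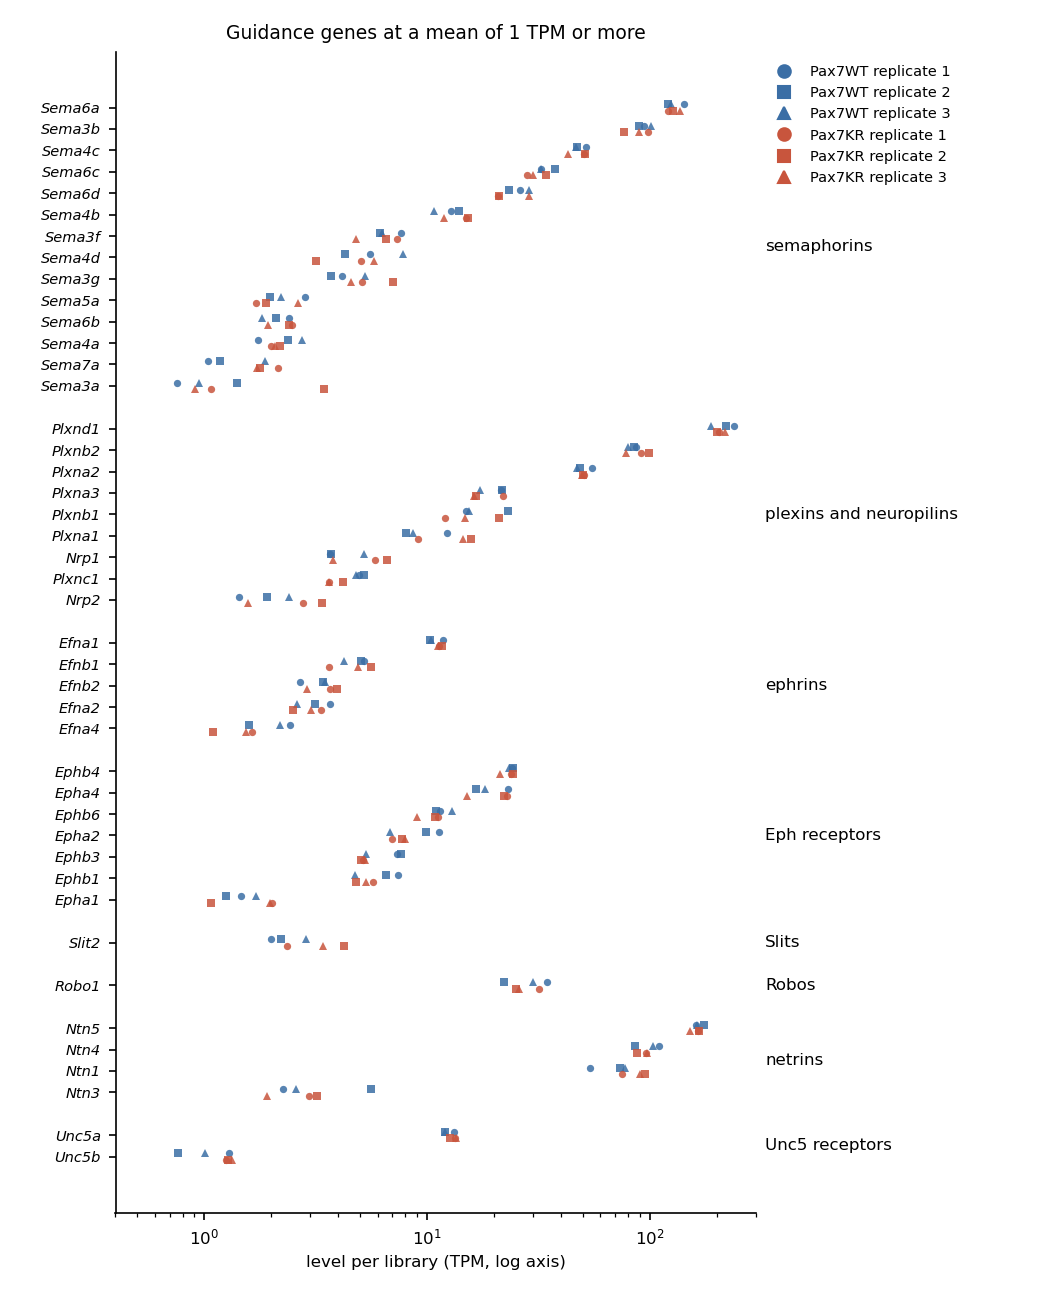
TPM on a log axis for the 43 guidance genes with a mean of 1 TPM or more, sorted by level within each class, with a point for each of the 3 Pax7WT (blue) and 3 Pax7KR (red) libraries. Levels run from 1.16 TPM for Unc5b to 211.9 TPM for Plxnd1, and the genotypes overlap for every gene shown except Plxnc1 and Ephb3.

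By genotype, no guidance gene passed an adjusted p of 0.1 in edgeR, where 0 of all 17152 genes passed, or 0.0%. With DESeq2, 0 members and 30 genes in all, 0.175%, passed. At an unadjusted p under 0.05, edgeR gave 4 members, 6.67% of the 60 tested, against a background of 4.68% of all genes. DESeq2 also gave 4 members, against a background of 3.98%, and 2 of them, Epha2 and Sema4g, were among the 4 of edgeR. Of the edgeR members, Slit2 was higher in Pax7KR (1 member, background 2.26%) and Epha2, Ephb1 and Sema4g were lower (3 members, background 2.43%). In 6 members, or 10%, the CPM values of the 3 Pax7KR libraries all lay on one side of the 3 Pax7WT libraries, against 10.3% of all genes. These were Slit2, Plxna1 and Unc5b on the higher side (background 5.14%) and Sema4g, Ephb1 and Efna4 on the lower side (background 5.19%). With 3 libraries against 3, an exact permutation test of any gene alone cannot go below p = 0.1. The fold change was above 0 in 29 members and below 0 in 31, with a median log2 fold change of -0.04, beside 49.0% above 0 and a median of -0.004 over all genes. In shares, 1.67% of the members were higher and 5.0% were lower at an unadjusted p under 0.05.

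**Figure D2:**
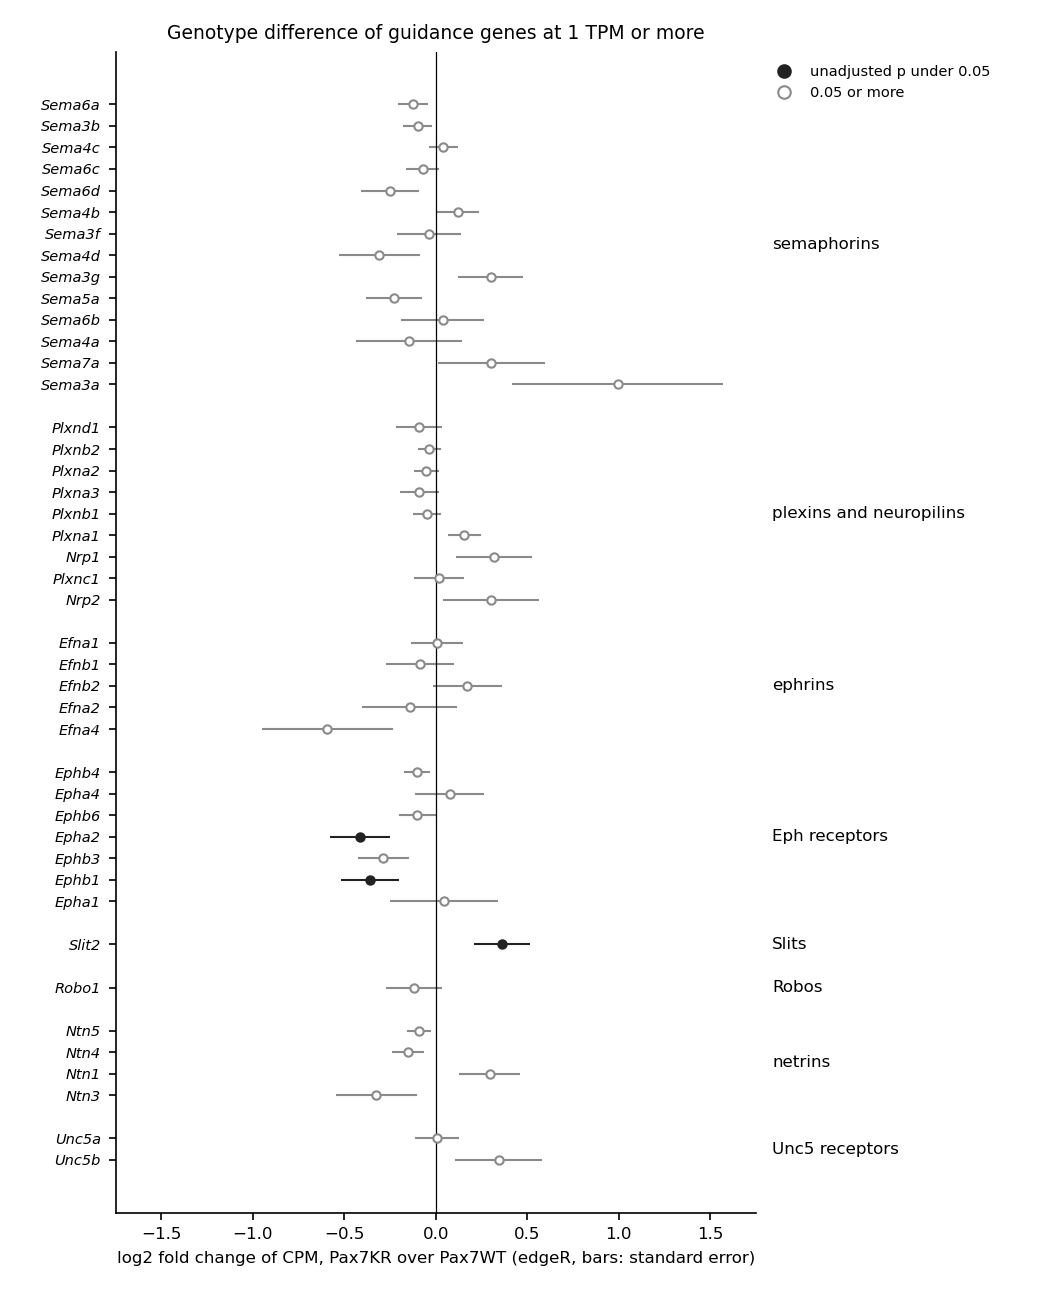
The log2 fold change of CPM (Pax7KR over Pax7WT, edgeR) with its standard error for the 43 guidance genes at 1 TPM or more, ordered as in the plot of levels, with filled points where the unadjusted p was under 0.05. Filled points are Epha2 (-0.41), Ephb1 (-0.36) and Slit2 (0.36), and none of these passed after adjustment over all genes.

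Among the ligands, all 20 semaphorins were tested and 14 reached 1 TPM. Their fold changes were split evenly, 10 above 0 and 10 below, with a median log2 fold change near 0 (-0.0005) and 1 member at an unadjusted p under 0.05. Sema6a, which binds plexins of class A, was at 413.5, 343.9 and 357.6 CPM in Pax7WT replicates 1 to 3 and at 320.4, 329.9 and 374.3 CPM in Pax7KR replicates 1 to 3, so that the genotypes overlapped. Its log2 fold change was -0.12 (SE 0.08). Sema3b, a secreted semaphorin that binds neuropilins, averaged 91.4 TPM with a log2 fold change of -0.10 (SE 0.08). Sema4c, a transmembrane ligand of Plxnb2, averaged 48.4 TPM, and its log2 fold change was 0.04 (SE 0.08), a sign that turned when transcript length was taken into account.

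Sema4g, a transmembrane semaphorin of class 4, was the semaphorin with the smallest p. Its CPM was 2.17, 2.43 and 2.73 in Pax7WT and 0.569, 1.93 and 1.14 in Pax7KR. Each Pax7KR library was below each Pax7WT library, also in TPM, where the highest Pax7KR value was 0.75 and the lowest Pax7WT value 0.856. The log2 fold change was -1.0 (SE 0.41) with an unadjusted p of 0.0289 and an adjusted p of 0.992 (edgeR). Without Pax7KR replicate 1 the log2 fold change was -0.67, and without Pax7KR replicate 2 it was -1.52. The gene rests on 13 to 59 reads per library and a mean of 0.758 TPM, which is under the level of 1 TPM.

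Sema3a, the secreted semaphorin known from motor nerve endings, had the largest difference among members at 1 TPM or more, and it came from 1 library. Its CPM was 2.31, 3.67 and 2.88 in Pax7WT and 3.06, 11.3 and 3.17 in Pax7KR. Pax7KR replicate 2 was far above the other 5 libraries, whose values overlapped. Its log2 fold change was 0.99 (SE 0.58), with an unadjusted p of 0.135 in edgeR and 0.0218 in DESeq2, and was 0.08 without Pax7KR replicate 2.

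All 11 plexins and neuropilins were tested, 9 of them at 1 TPM or more, and 0 had an unadjusted p under 0.05. Their log2 fold changes ran from -0.26 to 0.32 with a median of -0.04. Plxnc1, the receptor of Sema7a, depended on the scale. It was at 11.98, 10.1 and 9.99 CPM in Pax7WT and at 11.4, 10.97 and 10.2 CPM in Pax7KR, a log2 fold change of 0.02 (SE 0.14), while in TPM it was at 4.97, 5.24 and 4.81 against 3.62, 4.22 and 3.64, without overlap. With transcript length taken into account its log2 fold change was -0.45 with an unadjusted p of 0.0108. Plxnd1 was at 490.6, 549.2 and 394.7 CPM in Pax7WT and at 422.4, 420.4 and 502.1 CPM in Pax7KR. The genotypes overlapped fully, and the log2 fold change was -0.09 (SE 0.13). Plxnb2, the broadly used receptor of class 4 semaphorins, was at 268.5, 274.6 and 255.3 CPM in Pax7WT and at 263.5, 270.8 and 244.9 CPM in Pax7KR, a log2 fold change of -0.04 (SE 0.06) that turned positive when transcript length was taken into account. Plxna2, a receptor of Sema6a, averaged 50.3 TPM with a log2 fold change of -0.05 (SE 0.07).

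Plxna1, a co-receptor with neuropilins, was the receptor of this group whose genotypes did not overlap in CPM. It was at 42.6, 41.9 and 34.0 CPM in Pax7WT and at 43.9, 43.2 and 45.1 CPM in Pax7KR, and the nearest libraries differed by little. A log2 fold change of 0.16 (SE 0.09) came with an unadjusted p of 0.111 and an adjusted p of 0.992 (edgeR), and the TPM values of the genotypes overlapped. It was 0.38 with transcript length taken into account and 0.06 without Pax7WT replicate 3. Opposite-strand exons of Gm26811 cover 10.7% of its exon bases, with a mean of 0.2 reads there.

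In 4 of the 43 members at 1 TPM or more, or 9.3%, against 5.57% of all genes tested at that level, the 3 highest libraries were those with the 3 highest endothelial sums. These were Nrp1, Nrp2, Sema3g and Efnb2, and this comparison was chosen after the values had been seen. Nrp1, which also binds VEGF on vessels, was at 7.94, 8.19 and 11.4 CPM in Pax7WT and at 12.1, 13.9 and 8.18 CPM in Pax7KR. Nrp2, known from lymphatic vessels and from Sema3f and Sema3b signals, was at 5.66, 7.73 and 9.65 CPM in Pax7WT and at 10.2, 11.8 and 6.24 CPM in Pax7KR. In the same order the 16 endothelial markers summed to 397, 397 and 497 CPM in Pax7WT and to 519, 611 and 435 CPM in Pax7KR. Sema3g, a secreted semaphorin known from arteries, was at 11.1, 10.1 and 14.03 CPM in Pax7WT and at 13.1, 18.3 and 12.01 CPM in Pax7KR. Efnb2 was at 7.02, 5.98 and 9.60 CPM in Pax7WT and at 9.45, 8.25 and 7.80 CPM in Pax7KR. The endothelial Robo4 was at 1.07, 3.27 and 0.780 CPM in Pax7WT and at 1.88, 2.93 and 1.47 CPM in Pax7KR. It averaged 0.853 TPM, its highest library was Pax7WT replicate 2 and its lowest was Pax7WT replicate 3. In Nrp1, Nrp2 and the endothelial sum, Pax7KR replicate 2 was the highest library, Pax7KR replicate 1 the next and Pax7WT replicate 3 the next. The log2 fold changes were 0.32 (SE 0.21) for Nrp1, 0.30 (SE 0.26) for Nrp2 and 0.30 (SE 0.18) for Sema3g. With a library left out they ran from 0.15 without Pax7KR replicate 2 to 0.51 without Pax7KR replicate 3 for Nrp1, and from 0.10 to 0.53 without the same libraries for Nrp2, while Sema3g was at 0.09 without Pax7KR replicate 2. Of the 16 endothelial markers, 15 had a fold change above 0, with a median log2 fold change of 0.40 and 0 of 16 at an unadjusted p under 0.05. Emcn and Ptprb, both endothelial, ran from 2.21 to 8.59 CPM and from 29.1 to 71.9 CPM. The part of endothelial RNA in these values was not tested.

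**Figure D3:**
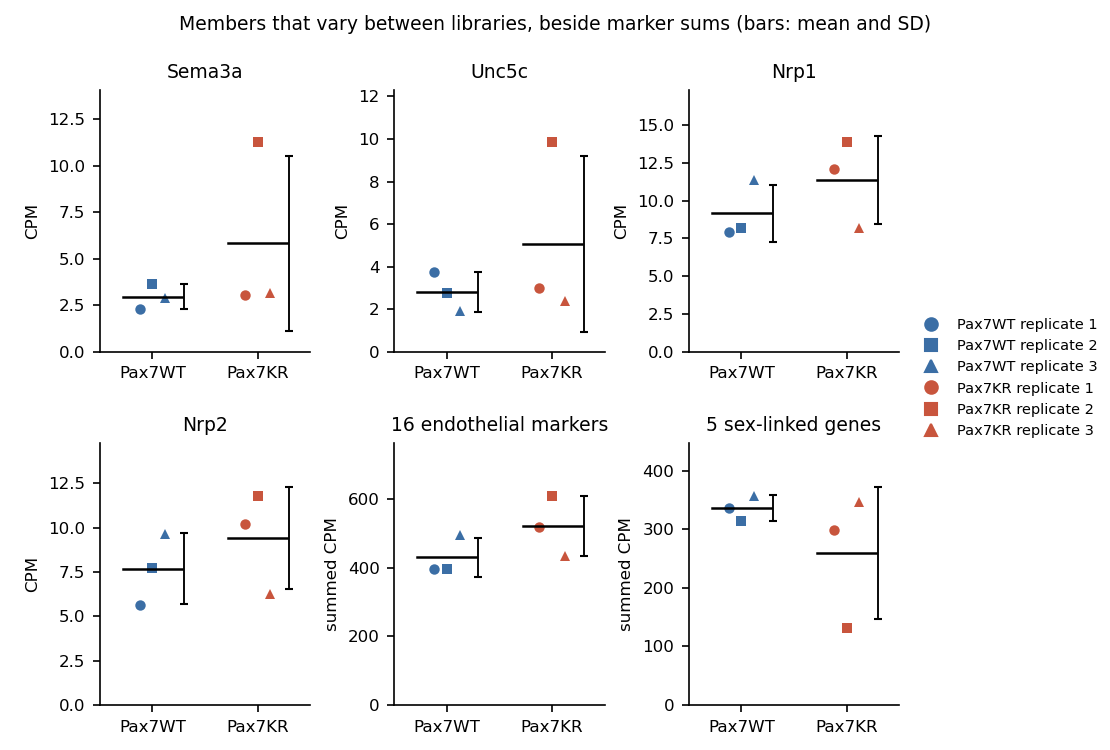
CPM of Sema3a, Unc5c, Nrp1 and Nrp2 beside the summed CPM of 16 endothelial markers and of 5 sex-linked genes, with a point for each library, a line at the mean of 3 libraries and a bar of the SD. Pax7KR replicate 2 (red square) is the highest library for the 4 members and the endothelial sum (611 CPM) and the lowest for the sex-linked genes (132 CPM).

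The ephrins were low, and their summed TPM was 25.9 ± 0.97 in Pax7WT and 25.8 ± 0.97 in Pax7KR (SD, n = 3 each). Of the 8 ephrins, 7 were tested and 5 reached 1 TPM. The log2 fold changes of single ephrins ran from -0.59 to 0.48. They were above 0 in 4 and below 0 in 3, with 0 at an unadjusted p under 0.05. Efna1, a lipid-anchored ephrin, was at 9.70, 8.58 and 8.58 CPM in Pax7WT and at 8.79, 9.21 and 9.03 CPM in Pax7KR. Its log2 fold change was 0.007 (SE 0.14), and its means were 8.95 ± 0.649 and 9.01 ± 0.213 CPM (SD, n = 3 each). The transmembrane ephrins Efnb1 and Efnb2 averaged 4.78 and 3.35 TPM, with log2 fold changes of -0.08 (SE 0.19) and 0.17 (SE 0.19).

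Efna4 had the second largest difference among members at 1 TPM or more. It was at 2.10, 1.41 and 1.90 CPM in Pax7WT and at 1.36, 0.921 and 1.32 CPM in Pax7KR. The genotypes did not overlap in CPM and overlapped in TPM. Between genotypes the log2 fold change was -0.59 (SE 0.36) with an unadjusted p of 0.121 and an adjusted p of 0.992 (edgeR). The value is uncertain, since it rests on 22 to 57 reads per library. Opposite-strand exons of 4731419I09Rik, a gene with a mean of 3.0 reads, cover 10.5% of its exon bases. Counted on either strand, 8.8% of its 31-base stretches also occur in other genes, which can be the same bases.

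The Eph receptors held 2 of the 4 members with an unadjusted p under 0.05 in edgeR, Epha2 and Ephb1, both lower in Pax7KR. They were 20% of the 10 tested, against a background of 4.68% in either direction and 2.43% lower. With DESeq2 only Epha2 of the Eph receptors was under 0.05. With a length offset in edgeR neither was, and Ephb3 was. Of the 14 receptors, 10 were tested and 7 reached 1 TPM. The fold change was above 0 in 4 and below 0 in 6, with a median log2 fold change of -0.10. Ephb4, which reads Efnb2 on vessels, was the highest at 23.6 TPM, with 59.1, 61.3 and 57.3 CPM in Pax7WT and 56.1, 57.9 and 51.5 CPM in Pax7KR. The genotypes overlapped at 57.3 to 57.9 CPM, and the log2 fold change was -0.10 (SE 0.07). Ephb6, a receptor without kinase activity, averaged 11.1 TPM with a log2 fold change of -0.10 (SE 0.10).

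Epha2, a receptor of class A ephrins such as Efna1, was at 25.0, 22.4 and 15.3 CPM in Pax7WT and at 14.7, 16.96 and 15.4 CPM in Pax7KR. Pax7WT replicates 1 and 2 were above all other libraries, and Pax7WT replicate 3 lay among the Pax7KR values. The means were 20.9 ± 5.01 and 15.7 ± 1.15 CPM (SD, n = 3 each). This gave a log2 fold change of -0.41 (SE 0.16) with an unadjusted p of 0.0271 and an adjusted p of 0.992 (edgeR). With transcript length taken into account the log2 fold change was -0.37 with an unadjusted p of 0.0613, and without Pax7WT replicate 1 it was -0.26 with an unadjusted p of 0.134.

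Ephb1, a receptor of class B ephrins, was at 20.4, 14.3 and 13.1 CPM in Pax7WT and at 11.9, 12.7 and 12.8 CPM in Pax7KR. The genotypes did not overlap, but Pax7WT replicate 1 alone was clearly above the rest, and in TPM the lowest library was Pax7WT replicate 3 at 4.75. The log2 fold change was -0.36 (SE 0.16) with an unadjusted p of 0.0402 and an adjusted p of 0.992 (edgeR), and it was -0.13 without Pax7WT replicate 1. The unadjusted p was 0.0509 in DESeq2 and 0.11 in edgeR with a length offset. Ephb3, another class B receptor, was at 14.6, 14.7 and 11.4 CPM in Pax7WT and at 11.8, 10.1 and 11.4 CPM in Pax7KR. Pax7WT replicate 3 was among the Pax7KR libraries in CPM, while in TPM all 3 Pax7KR libraries were below Pax7WT. Its log2 fold change was -0.29 (SE 0.14) with an unadjusted p of 0.0576, and -0.45 with an unadjusted p of 0.0194 once transcript length was taken into account. The Schwann cell and glial markers also summed to less in each Pax7KR library, with 6 of 10 fold changes below 0. Of these 10 markers, 3 (30%) had an unadjusted p under 0.05 in edgeR, against 4.68% of all genes. The glial factor Sox10 was at 1.18 to 3.07 CPM over all libraries. The part of these markers in the Eph receptor values was not tested.

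Epha4, a receptor that reads ephrins of both classes, averaged 19.7 TPM and had a log2 fold change of 0.08 (SE 0.19), a sign that turned with transcript length. It was the member whose estimated transcripts differed most between libraries. The transcript Epha4-205, annotated as a target of nonsense-mediated decay, took 70.7%, 69.5% and 84.9% of the TPM of the gene in Pax7WT and 18.3%, 73.7% and 0.0% in Pax7KR. The protein-coding Epha4-201 was at 1.16, 0.0 and 0.0 TPM in Pax7WT and at 13.0, 0.0 and 14.25 TPM in Pax7KR. Pax7KR replicate 2 was like the Pax7WT libraries, so the genotypes overlapped. These shares are estimates for reads that fit several transcripts of the gene, and how firmly the reads separate them was not tested.

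**Figure D4:**
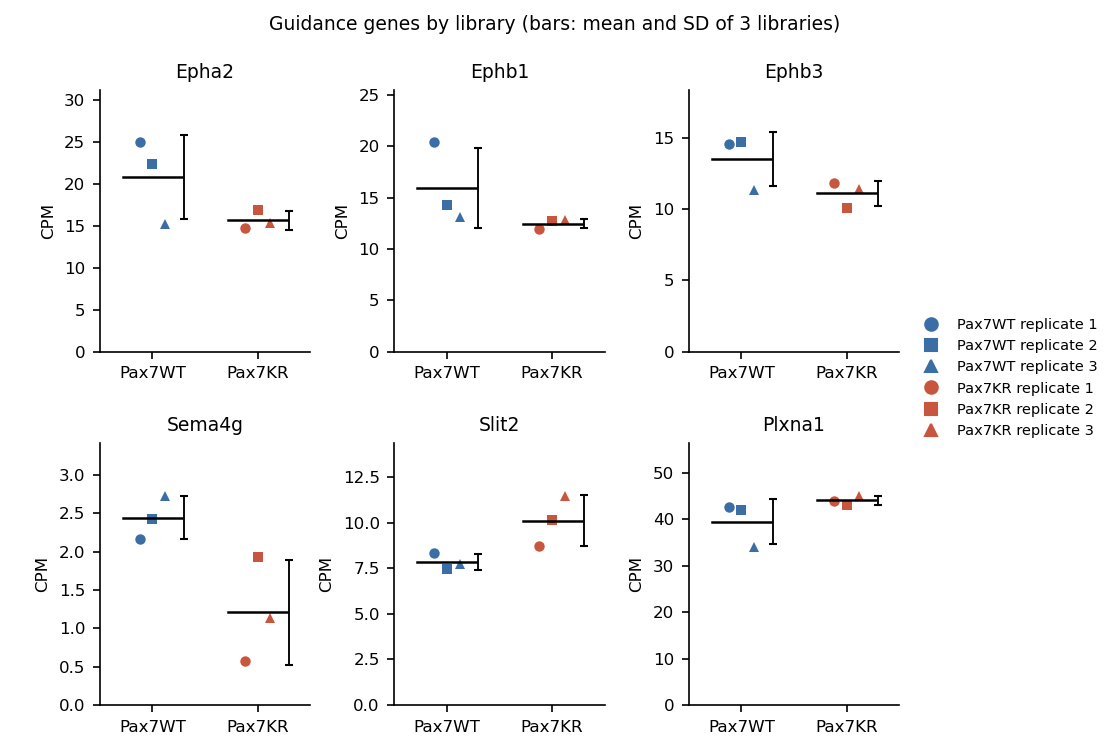
CPM of Epha2, Ephb1, Ephb3, Sema4g, Slit2 and Plxna1 in each library, with a line at the mean of 3 libraries and a bar of the SD. Sema4g, Ephb1, Slit2 and Plxna1 have no overlap between genotypes, and for Epha2 and Ephb3 Pax7WT replicate 3 lies among the Pax7KR libraries.

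Slits and Robos were represented mainly by Slit2 and Robo1. Slit2, the secreted ligand of Robo1, was at 8.34, 7.45 and 7.75 CPM in Pax7WT and at 8.70, 10.1 and 11.5 CPM in Pax7KR. All 3 Pax7KR libraries were above all 3 Pax7WT libraries, Pax7KR replicate 1 by a small margin, and in TPM the genotypes overlapped. The means were 7.85 ± 0.454 and 10.1 ± 1.39 CPM (SD, n = 3 each). The log2 fold change was 0.36 (SE 0.155) with an unadjusted p of 0.036 and an adjusted p of 0.992 (edgeR), and with transcript length taken into account 0.45 with an unadjusted p of 0.0915. Robo1, the receptor, was at 141.2, 94.4 and 125.5 CPM in Pax7WT and at 121.8, 102.7 and 108.8 CPM in Pax7KR, a log2 fold change of -0.12 (SE 0.15). Robo4, an endothelial Robo, averaged 0.853 TPM and Robo2 0.101 TPM. Slit3 averaged 0.55 TPM.

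The netrins were few and abundant. All 4 were tested and all reached 1 TPM, with 1 fold change above 0 and 3 below. Ntn1, the founding axon guidance netrin, was at 148.9, 208.3 and 208.5 CPM in Pax7WT and at 195.8, 247.9 and 249.5 CPM in Pax7KR. Pax7KR replicates 2 and 3 were above every Pax7WT library and Pax7KR replicate 1 was not. The means were 188.5 ± 34.3 and 231 ± 30.5 CPM (SD, n = 3 each), and the log2 fold change was 0.29 (SE 0.17) with an unadjusted p of 0.131 in edgeR and 0.0199 in DESeq2. Without Pax7WT replicate 1, the lowest library, it was 0.15. Ntn4 was at 226.7, 178.4 and 214.1 CPM in Pax7WT and at 188.6, 171.6 and 197 CPM in Pax7KR, with a log2 fold change of -0.15 (SE 0.09). Ntn5 was at 126.9, 141.4 and 128.6 CPM in Pax7WT and at 125.1, 128.5 and 118.7 CPM in Pax7KR, with a log2 fold change of -0.09 (SE 0.06). The level of Ntn5 is uncertain, since the opposite-strand gene Sec1 overlaps 23.4% of its exon bases. Sec1 had a mean of 1056.4 reads, against 2839.4 for Ntn5. Counted on either strand, 20.5% of the 31-base stretches of Ntn5 occur in other genes, which can be the same bases.

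Of the 4 Unc5 receptors, which mediate repulsion and can signal cell death without ligand, 3 were tested and all 3 had fold changes above 0. Unc5a, the highest at 12.8 TPM, was at 23.5, 25.2 and 21.3 CPM in Pax7WT and at 20.8, 21.8 and 27.6 CPM in Pax7KR. Its log2 fold change was 0.005 (SE 0.12), and its sign turned in several alternatives. Unc5b, known from vessels, was at 3.90, 2.60 and 3.36 CPM in Pax7WT and at 4.02, 4.15 and 4.40 CPM in Pax7KR. The genotypes did not overlap in CPM, and the log2 fold change was 0.34 (SE 0.24) with an unadjusted p of 0.176. Unc5c was at 3.75, 2.77 and 1.90 CPM in Pax7WT and at 3.02, 9.84 and 2.36 CPM in Pax7KR. As for Sema3a, Pax7KR replicate 2 alone was high, and the log2 fold change of 0.85 (SE 0.61) was -0.07 without that library. Whether the other differences of that library bear on these values was not tested.

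Ligand and receptor levels were unequal in most of the known pairs. Plxnd1 was at 211.9 TPM while its ligand Sema3e averaged 0.0821 TPM. Ephb4 was at 23.6 TPM against 3.35 TPM for Efnb2, and Robo1 at 28.3 TPM against 2.85 TPM for Slit2. In these 3 pairs the receptor exceeded the ligand in every library. The order was opposite for Ntn1, at 77.6 TPM against 12.8 TPM for Unc5a, and for Sema3b, at 91.4 TPM against 2.25 TPM for Nrp2. Both partners were abundant for Sema6a and Plxna2, at 128.7 and 50.3 TPM, and for Sema4c and Plxnb2, at 48.4 and 86.9 TPM. Among netrin receptors outside the member families, Neo1 (neogenin) averaged 68.6 TPM and Dcc was at 0 reads in all 6 libraries.

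**Figure D5:**
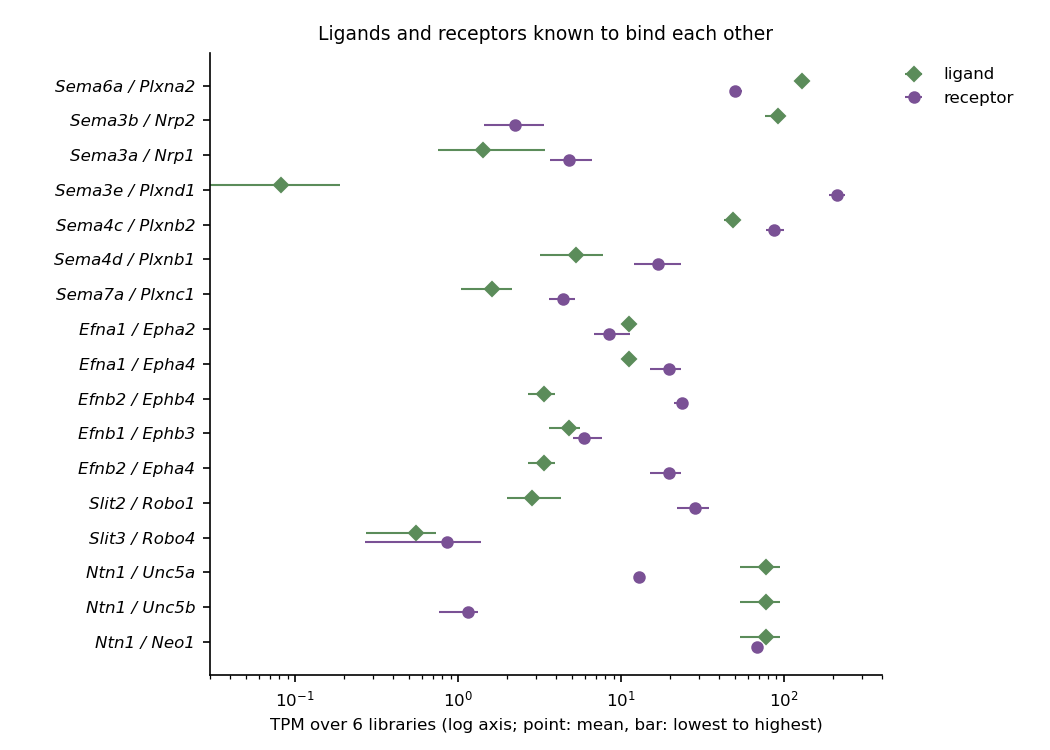
Mean TPM of ligand (green diamonds) and receptor (purple circles) for 17 known pairs on a log axis, with bars from the lowest to the highest of 6 libraries. The lowest Sema3e library is at 0 TPM and its bar is drawn to the edge of the axis, and Plxnd1 beside it is at 211.9 TPM.

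The members that were not tested were Efna3, Epha5, Epha6, Epha8, Epha10, Slit1, Robo3 and Unc5d. Epha6, Epha8, Epha10 and Robo3 had 0 reads in all 6 libraries, which allows up to 3 reads or 0.11 to 0.169 CPM per library, for counting error alone. Efna3, Epha5, Slit1 and Unc5d had at most 8 reads in any library. Among the tested members under 1 TPM, log2 fold changes ran as far as -1.76 for Ephb2 (SE 1.08) and 1.46 for Sema4f (SE 1.03).

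Of the 27 signalling partners of semaphorins, 1 was higher and 2 were lower at an unadjusted p under 0.05, where the background was 4.68% in either direction, and 0 passed after adjustment in edgeR. The genotypes did not overlap in 5 of the 27, or 18.5%, against 10.3% of all genes, with 1 higher and 4 lower. Rras, a GTPase that plexins act on, was at 46.9, 49.9 and 49.9 CPM in Pax7WT and at 43.7, 44.7 and 43.0 CPM in Pax7KR, with a log2 fold change of -0.16 (SE 0.07). Gipc1, an adaptor that binds neuropilins, was at 25.1, 27.5 and 24.3 CPM in Pax7WT and at 23.0, 22.0 and 21.0 CPM in Pax7KR, with a log2 fold change of -0.22 (SE 0.10). Rnd1, a small GTPase that binds plexins, had a log2 fold change of 1.81 (SE 0.80) at no more than 1.17 CPM. Of the 26 partners of Eph receptors and ephrins, 15 had a fold change above 0 and 11 below, with 0 at an unadjusted p under 0.05. Of the 16 partners of Slits and Robos, 6 were above and 10 below 0, and of the 14 tested netrin receptors and partners 7 were above and 7 below, with 0 at an unadjusted p under 0.05 in both lists. Without overlap between genotypes were 3 of the 26 Eph and ephrin partners, or 11.5%, and 0 of the 16 Slit and Robo partners. Among the 14 tested netrin receptors and partners it was 1, or 7.14%, where the share of all genes was 10.3%. The median log2 fold changes of the 4 lists were -0.01, 0.02, -0.02 and -0.002.

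Transcript use was steady in most members. Of the 43 members at 1 TPM or more, 31 had the same most abundant transcript in every library and 25 had a transcript with over 50% of the TPM of the gene in every library. The most abundant transcript was protein coding in 40. In Plxnd1, transcripts annotated as retaining an intron took between 37.3% and 47.8% of the TPM, and in Plxna3, a class A plexin, between 53.3% and 67.3%. In Ntn5, Ntn5-201 took between 64.9% and 70.6%, and in Ntn4, Ntn4-201 took 100% in every library.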

How the data were processed

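RNA-sequencing data of freshly isolated satellite cells from 3 Pax7WT and 3 Pax7KR samples were grouped by the genotype in their labels, and every sample was used. The labels do not say that a number links samples, and nothing states which samples shared a mouse, so p-values measure the spread between these libraries. The authors built libraries from 15 ng of RNA with a directional kit and quantified transcripts with Salmon (version 1.3.0) against GENCODE transcripts of GRCm38 with genomic decoys. They deposited estimated counts per transcript, without normalization and often fractional, together with deposited TPM values and effective lengths. The table of the authors' own comparison (fold changes, p-values and mean counts) was not used.

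Estimated counts and TPM were summed per gene with GENCODE vM21 in place of the vM25 of the authors, both on GRCm38. Of 140992 transcripts, 1201 were not matched, with 0.592% to 0.634% of reads. Summed counts were rounded. A gene entered the test if at least 2 libraries gave it at least 5 reads. The test was the robust quasi-likelihood test of edgeR (version 4.0.16) with TMM and genotype as its only term, with Benjamini-Hochberg adjustment over 17152 genes and a cut-off of 0.1. Standard errors come from the fold change and the F statistic. Differences between genotypes are in CPM with TMM library sizes, and levels between genes are in TPM. The values that take transcript length into account come from edgeR with a length offset. DESeq2 (version 1.42.0, the authors used 1.28.1) and limma (version 3.58.1) served as alternatives in R (version 4.3.3), and other steps ran in Python (version 3.11.15). The fit was tested on simulated data. Intervals and floors cover counting error only.

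The members, marker lists and partner lists were chosen with earlier results of these data known. Named genes are the 3 highest by TPM in each class at 1 TPM or more, every member with an unadjusted p under 0.05 and the 3 largest fold changes at 1 TPM or more. Ephb3, Nrp1, Nrp2, Plxna1, Plxnc1, Sema3g and Unc5c were added after their values were seen, as were genes given only by level, transcript share or range. Promoters are the 250 bases before RefSeq starts. Sequence shared with other genes was counted over stretches of 31 bases on either strand.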

Additional observations from a re-analysis of the deposited data

How the results depend on the processing

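Under 17 alternatives, 0 guidance genes passed the adjusted cut-off, also at a cut-off of 0.05, and the lowest adjusted p of a named gene was 0.106, for Epha2 with no filter on low reads, while other alternatives put Epha2 between 0.577 and 1.0. The count at an unadjusted p under 0.05, which was 4, became 13 with no filter (20.3% of members, 5.7% of all 24068 genes), and ran from 2 without Pax7KR replicate 2 (3.39% of members, 3.16% of all genes) to 7 without Pax7WT replicate 3 (11.9% and 5.08%). Sema4g stayed under 0.05 in 11 of 11 alternatives that kept all libraries, Epha2 in 9, Slit2 in 7 and Ephb1 in 6, and each did in 2 of 6 that left out a library. The count of members without overlap, which was 6, ran from 10 to 16 with a library left out, where 17.9% to 22.8% of all genes did not overlap. The semaphorin partners under 0.05, in a list of 27 genes, went from 3 to 1 with DESeq2, where 3.98% of all genes were under 0.05. With a library left out they went to between 0 (without Pax7KR replicate 2) and 2. The other lists then gave 0 to 2 (Eph, 26 genes), 0 to 1 (Slit, 16 genes) and 0 to 3 (netrin, 16 genes). In these fits the share of all genes under 0.05 ran from 3.16% to 6.19%.

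Of 31 named genes, 20 kept their direction in every alternative and 11 did not. With a length offset in DESeq2 and in edgeR, log2 fold changes turned to -0.014 and -0.016 for Epha4, 0.0323 and 0.0319 for Plxnb2, -0.0653 and -0.0654 for Sema4c, and -0.449 and -0.45 for Plxnc1. With limma-voom, Efna1 was at -0.0022 and Unc5a at -0.0058. With a library left out, the ranges crossed 0 for Efna1 (-0.024 to 0.071), Efnb1 (-0.23 to 0.080), Epha4 (-0.073 to 0.25), Plxna2 (-0.0997 to 0.019), Plxnc1 (-0.029 to 0.11), Plxnb2 (-0.066 to 0.0066), Plxnd1 (-0.21 to 0.0176), Robo1 (-0.26 to 0.0135), Sema4c (-0.0176 to 0.12), Unc5a (-0.13 to 0.082) and Unc5c (-0.065 to 1.19). Replicate numbers are shared between genotypes, but same-numbered libraries deviated together with correlations of only 0.002, 0.045 and -0.056, so they were not treated as pairs. With a replicate block, 13 genes and 0 members passed the adjusted cut-off, 6 members (10% against 4.33% of all genes, namely Epha2, Ntn1, Sema3a, Sema4d, Sema4g and Sema6d) and 1 netrin partner were under an unadjusted 0.05, Ntn1 was at an unadjusted p of 0.000806 and an adjusted p of 0.374 (edgeR), and Unc5a was at -0.0032. The causes of these shifts were not tested.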

Other observations

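Other genes outside the member families belong to the same ligand and receptor systems. Rgmb and Rgma, membrane-bound ligands of neogenin, averaged 279 and 190.2 TPM, above Ntn4 and Ntn1, and their log2 fold changes were 0.04 (SE 0.08) and -0.13 (SE 0.08). Neo1, the neogenin gene, was at 203.9, 206.8 and 206.9 CPM in Pax7WT and at 199.3, 191.6 and 200.9 CPM in Pax7KR, so that every Pax7KR library lay below every Pax7WT library by a small margin (log2 fold change -0.06, SE 0.06). Draxin, a secreted protein that binds netrin receptors, was at 40.2, 26.0 and 43.8 CPM in Pax7WT and at 49.3, 22.9 and 28.6 CPM in Pax7KR, with the genotypes overlapping. Dag1, the dystroglycan gene, whose protein binds Slits and laminin, averaged 907.2 TPM with a log2 fold change of -0.04.

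Plxnd1, the highest member by TPM summed over all its transcripts, is known mainly from endothelial cells. In Pax7WT replicates 1 to 3 it was at 490.6, 549.2 and 394.7 CPM, where the 16 endothelial markers summed to 397, 397 and 497 CPM. In Pax7KR replicates 1 to 3 Plxnd1 was at 422.4, 420.4 and 502.1 CPM, beside endothelial sums of 519, 611 and 435 CPM. The part of other cells in its level was not tested.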
